A study of Homo sapiens with 12 samples.

Results

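Total RNA of HCT116 cells after hnRNP U siRNA was set against that after control siRNA across all expressed genes, with weight on functions outside mitochondria, on gene biotypes and on gene features. HCT116 is a human colorectal carcinoma line, and cells were harvested 48 h after transfection of 1 of the 2 siRNAs with Lipofectamine RNAiMAX. The comparison took, by their titles, the 6 total RNA (input) libraries of the 12 in the series, 3 per siRNA, 1 of each siRNA in each of 3 experiments. The other 6 libraries hold heavy polysomal RNA of the same experiments. For polysome gradients, the paper treated cells briefly with cycloheximide, an inhibitor of protein synthesis, before lysis, and loaded the lysate after it was cleared by centrifugation. The titles and descriptions do not say whether the input RNA came from that cleared lysate or from whole cells. RNA removed with the pellet therefore cannot be told apart from RNA that was absent. The labels do not say which hnRNP U siRNA was transfected, and all 3 knock-down libraries carry the same label, so an effect of the siRNA apart from the loss of hnRNP U cannot be told apart from it.

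The libraries held 31412499 to 37487990 counts. Of 62703 genes in the table, 15920 had enough counts to be tested. Levels are given in CPM, the counts of a gene scaled to the total of its library after that total was adjusted by edgeR's TMM factor. A change is the log2 ratio of hnRNP U siRNA to control siRNA, fitted in edgeR with the experiment as a block. A gene is called here when its Benjamini-Hochberg adjusted p over the 15920 genes was under 0.05. The libraries were poly(A)-selected, and levels are relative to the other genes of the same library. In bulk RNA, fewer cells of a type and less RNA per cell cannot be told apart. Of the 13 colorectal epithelial markers 7 were tested. EPCAM, CDH1, KRT8, KRT18, KRT19 and CDX2 were present, and KRT20 was low, at a mean of 0.987 CPM after control siRNA and 1.36 CPM after hnRNP U siRNA. CDX1 and CEACAM5 were at 0, and VIL1, CDH17, LGALS4 and CEACAM6 had 1, 2, 5 and 1 counts over the 6 libraries. The whole list of markers summed to 4024 to 4310 CPM after control siRNA and 4130 to 4435 CPM after hnRNP U siRNA.

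hnRNP U, also known as scaffold attachment factor A, is an abundant nuclear protein that binds RNA and scaffold-attachment DNA. It is known to associate with pre-mRNA and with chromatin-bound RNA, and to act in splicing, in chromatin organization and at the mitotic spindle. It also binds RNA G-quadruplexes (RG4s), stacked structures that form in G-rich RNA.

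The targeted gene, HNRNPU (ENSG00000153187, chr1:244840638-244864560, minus strand, GRCh38), stood at 1032, 1152 and 1030 CPM after control siRNA in experiments 1, 2 and 3. After hnRNP U siRNA it stood at 174, 154 and 167 CPM. The groups were far apart, and the level was 6.49-fold lower (log2 change -2.70, 95% confidence interval -2.81 to -2.59, adjusted p = 2.7e-14 in edgeR's quasi-likelihood test). Of the mRNA, a minor part remained in each experiment at the time of harvest.

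Depletion of hnRNP U came with many small changes. Of the 15920 genes, 9507 (59.7%) were called, 4635 of them (29.1%) higher and 4872 (30.6%) lower after hnRNP U siRNA. Of the called genes, 4053 (42.6%) changed by less than 1.25-fold, and their median absolute log2 change was 0.38. Changes of at least 2-fold were found in 643 genes that rose (4.04%) and 732 that fell (4.60%), and changes of at least 4-fold in 217 genes. In 9387 of the called genes (98.7%) the sign was the same in each of the 3 experiments, and in 8860 the 3 values of one group did not overlap those of the other. Both counts are among called genes only. The call itself favours a shared sign and a gap between groups, so these counts are no separate support. The changes of all tested genes had a Spearman correlation of 0.759, 0.766 and 0.793 between pairs of experiments, each of which had its own control library.

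**Figure D1:**
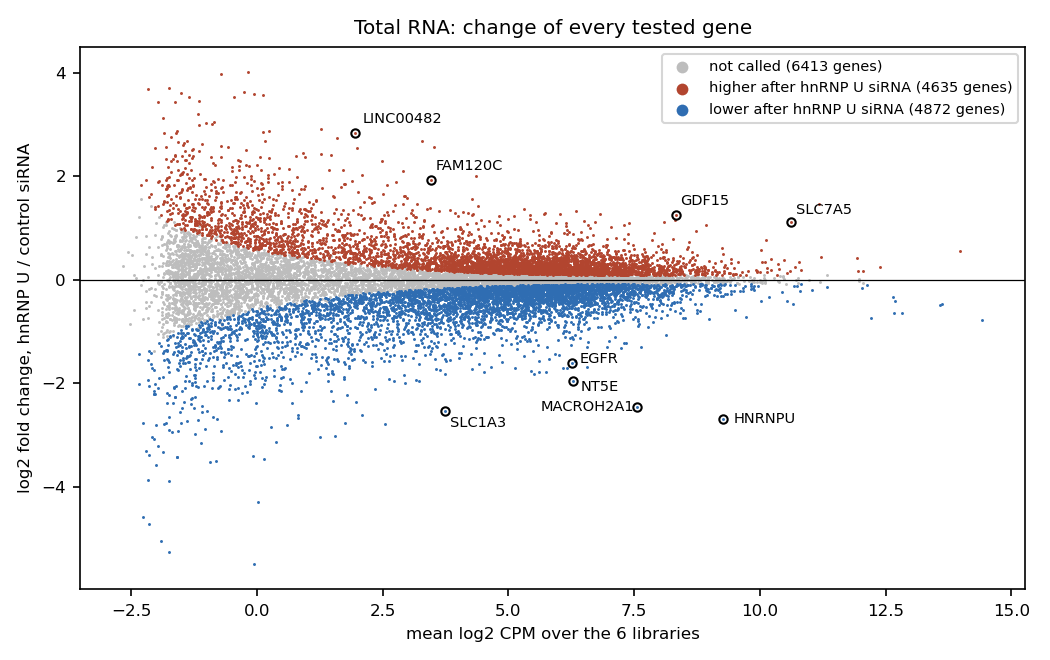
Each point is 1 of the 15920 tested genes, with its mean log2 CPM over the 6 libraries on the horizontal axis and its log2 change (hnRNP U siRNA against control siRNA) on the vertical axis. Grey points were not called (6413), red ones rose (4635) and blue ones fell (4872). HNRNPU, at a log2 change of -2.70, lies below all other genes of its level.

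The largest decreases among well-expressed protein-coding genes included transporters, enzymes and an integrin of the cell surface and a histone variant. SLC1A3, a plasma membrane transporter of glutamate and aspartate, stood at 22.1, 24.9 and 22.2 CPM after control siRNA and at 4.24, 3.47 and 4.16 CPM after hnRNP U siRNA (log2 change -2.54 ± 0.09, SE). MACROH2A1, which encodes a macroH2A histone variant, stood at 307, 326 and 322 CPM and then at 55.5, 58.0 and 59.9 CPM (-2.46 ± 0.04, adjusted p = 1e-15, edgeR). Its remaining level was close to that of HNRNPU as a fraction of control. The second macroH2A gene, MACROH2A2, fell as well but by less, from 63.6, 67.8 and 65.4 CPM to 27.0, 29.3 and 30.9 CPM (-1.18 ± 0.04). NT5E, the cell-surface enzyme that makes adenosine from AMP, fell from 129, 127 and 115 CPM to 33.4, 34.5 and 28.4 CPM (-1.95 ± 0.04). ITGB8, the integrin beta subunit that activates latent TGF-beta, fell from 15.1, 14 and 15.9 CPM to 3.66, 3.60 and 4.33 CPM (-1.96 ± 0.08). In each of these genes the groups did not overlap. The largest decreases were picked among called genes with the same sign in every experiment, so this is no separate support.

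The other 8 of the 12 largest decreases lay between -1.93 and -1.74. A pair of them encode membrane pumps of the ABC family, ABCA3, a lipid transporter (-1.93), and ABCC3, an exporter of organic anions (-1.83). GDA, guanine deaminase, fell from 85.1, 88.9 and 79.0 CPM to 26.3, 24.4 and 23.1 CPM (-1.78). OXSR1, a kinase that acts on cation-chloride cotransporters, fell from 74.8, 77.6 and 75.3 CPM to 23.4, 20.8 and 22.0 CPM (-1.78). TMTC4, a glycosyltransferase of the endoplasmic reticulum, changed by -1.78, CRIM1, a transmembrane protein that binds BMPs, by -1.76, and NEURL1B, an E3 ubiquitin ligase of Notch ligands, by -1.74. ARL2BP, a binding partner of the ARL2 GTPase, changed by -1.82, but 91.3% of its exon bases lie under exons of a gene on the other strand, and the strand setting of the counts is not given in the sources used here.

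The largest increases were smaller than the largest decreases. FAM120C rose from 4.50, 4.07 and 4.77 CPM to 15.6, 18.1 and 17.2 CPM (1.93 ± 0.09, adjusted p = 1.2e-10, edgeR). TSPYL4, a relative of nucleosome assembly proteins, rose from 8.78, 9.54 and 10.5 CPM to 27.4, 29.1 and 29.0 CPM (1.57 ± 0.06). DHRS2, a short-chain dehydrogenase, rose from 11.3, 10.9 and 11.8 CPM to 31.3, 31.7 and 28.0 CPM (1.41 ± 0.06). None of the 11 increases given here had overlapping groups, which their choice as the largest called changes favours. Those besides FAM120C, TSPYL4 and DHRS2 lay between 1.26 and 1.38. They included GPR3, a receptor that raises cyclic AMP without a known ligand (1.38), H2AC6, a histone H2A gene (1.34), and SDC4, the heparan sulphate proteoglycan syndecan-4 (50.9, 41.4 and 46.8 CPM against 116, 115 and 117 CPM, 1.33). NGFR, a neurotrophin receptor, rose by 1.31, UBXN6, a cofactor of the p97 ATPase, by 1.28, WBP1L by 1.36 and SSU72, a phosphatase of the tail of RNA polymerase II, by 1.27. SBDS, which matures the large ribosomal subunit, was also in this set (1.26), and its reads may be shared with the near-identical pseudogene SBDSP1.

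**Figure D2:**
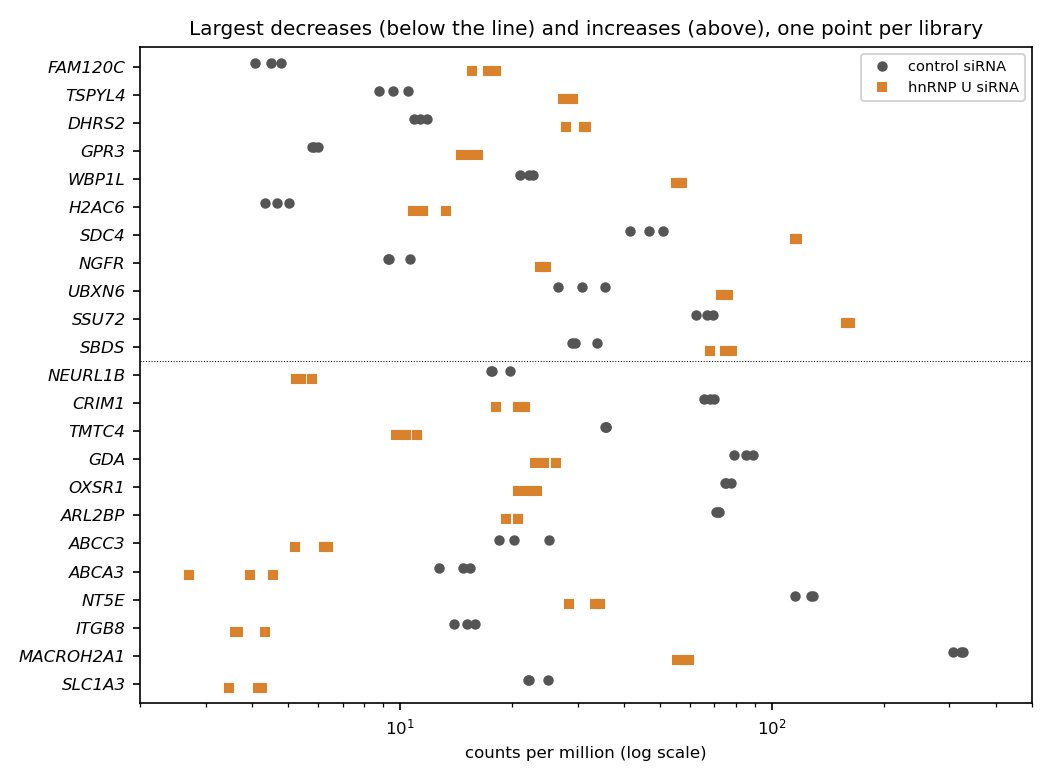
Levels of 11 of the 12 largest increases (above the dotted line) and the 12 largest decreases (below it) among well-expressed protein-coding genes (mean log2 CPM 3 or more), in CPM on a log scale. Each circle is a control library and each square an hnRNP U siRNA library, 3 of each per gene. In all 23 genes the circles and the squares stand apart, with MACROH2A1 near 307 to 326 CPM in the control libraries and 55.5 to 59.9 CPM in the others. The genes were picked as the largest called changes with the same sign in every experiment, which favours such a gap.

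Among abundant transcripts the shifts in CPM were led by mitochondrial RNAs in both directions. The largest fall was in MT-ND4, an mRNA (27184, 28071 and 28147 CPM against 15933, 15014 and 17468 CPM, log2 change -0.79), and the largest rise in MT-RNR2, the large ribosomal RNA (13800, 12737 and 12668 CPM against 19422, 18874 and 18843 CPM, 0.54). MT-RNR1, the small ribosomal RNA, rose from 1297, 1216 and 1203 CPM to 3603, 3474 and 3168 CPM (1.46). As the libraries were poly(A)-selected, whether the poly(A)-tailed part or the whole of these ribosomal RNAs moved cannot be told apart. Outside mitochondria, SLC7A5, the large neutral amino acid transporter, showed the largest gain. It stood at 1095, 934 and 964 CPM after control siRNA and at 2232, 2184 and 2038 CPM after hnRNP U siRNA (1.11 ± 0.04, adjusted p = 8.2e-12, edgeR). ACTB, cytoplasmic beta-actin, rose from 3496, 3292 and 3214 CPM to 4486, 4541 and 4299 CPM (0.41 ± 0.03). Both genes were higher in each hnRNP U siRNA library than in any control library.

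Genes were next read by function, in lists whose members were taken from textbook knowledge. Each list is given by how many tested members rose or fell and by its median log2 change. Over all genes 29.1% were higher and 30.6% lower, with a median of 0.00. Over the 12758 protein-coding genes 28.9% were higher and 35.2% lower, with a median of -0.03, so that these leaned lower as a whole. Membrane proteins that attach cells to the matrix, and the matrix proteins themselves, were the list with the lowest median outside the cell type marker lists. Of 47 integrins, laminins and collagens tested, 36 fell, 11 of them at least 2-fold, and 1 rose (COL12A1, 0.15, not called without the replicate block). The median was -0.38, and -0.39, -0.40 and -0.44 in the 3 experiments. Besides ITGB8, COL4A4, a chain of basement membrane collagen IV, fell from 10.4, 11.3 and 11.7 CPM to 3.48, 3.36 and 4.52 CPM (-1.56 ± 0.10). COL4A3, its partner in the same collagen, stood at 2.23, 1.97 and 2.70 CPM and then at 0.754, 0.873 and 0.754 CPM (-1.53 ± 0.20). FN1, fibronectin, changed by -1.17, LAMA4, a laminin chain, by -1.24, and COL7A1, the collagen of anchoring fibrils, by -1.35. ITGB1, the beta subunit of most matrix-binding integrins, changed by only -0.08, although it was called. The fibroblast and smooth muscle markers, which also hold a collagen, summed to 22.7 to 25.9 CPM after control siRNA and 14.8 to 16.6 CPM after hnRNP U siRNA, led by COL1A1 (-0.75). Of the 10 markers 3 were tested, ACTA2, smooth muscle actin, at -0.91 and DES, desmin, which rose, at 0.71, while DCN, LUM and PDGFRA were at 0. The libraries are of a cultured cell line, and the part of any other cells in this decrease was not tested.

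Other surface and signalling groups leaned lower as well. Of 39 genes of the TGF-beta and BMP pathway, 21 fell and 10 rose (median -0.18), with TGFB2, a ligand, at 0.990, 1.07 and 1.02 CPM and then 0.319, 0.318 and 0.335 CPM (-1.65 ± 0.28). Among 52 receptor tyrosine kinases and their ligands the numbers were even, 16 lower and 15 higher, but both receptors with the largest changes fell. AXL fell from 141, 152 and 145 CPM to 46.1, 41.4 and 47.8 CPM (-1.69 ± 0.05, adjusted p = 1.9e-12, edgeR). EGFR, the epidermal growth factor receptor, fell from 113, 122 and 113 CPM to 34.2, 40 and 40 CPM (-1.61 ± 0.05). AREG, a ligand of EGFR, rose from 228, 176 and 191 CPM to 408, 435 and 471 CPM (1.15 ± 0.07). EPHB2, an ephrin receptor, changed by -0.94. Within PI3K, AKT and mTOR signalling, 21 of 47 genes fell and 12 rose (7 without experiment 3), with a median of -0.13 and with INPP4B, an inositol phosphatase, going from 54.5, 48.5 and 52.3 CPM to 20.7, 19.8 and 20.4 CPM (-1.35 ± 0.05). Of 49 MAPK signalling genes, 23 fell and 7 rose (median -0.11), among the former the kinase BRAF (-0.69). The MAPK counts were the least firm of these, with 19 called in place of 30 when experiment 3 was left out and 18 in DESeq2.

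Junction and transporter lists were mixed. Of 34 genes of cadherins, desmosomes and tight junctions, 16 fell and 10 rose (median -0.12). PKP4, a plakophilin of cell junctions, fell from 107, 113 and 105 CPM to 44.2, 44.6 and 46.9 CPM (-1.26), while CLDN7, a claudin, rose from 96.5, 89.8 and 89.9 CPM to 156, 159 and 157 CPM (0.78). Of 31 ABC transporters, 14 fell and 8 rose, with a median of -0.28. The 163 solute carriers outside the mitochondrial SLC25 family showed 62 lower and 50 higher (median -0.02). Of 43 genes of the Wnt pathway, 18 fell and 14 rose (9 without experiment 3; median -0.04), with the receptor FZD6 at -0.92 and the secreted inhibitor DKK1 at 0.81.

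**Figure D3:**
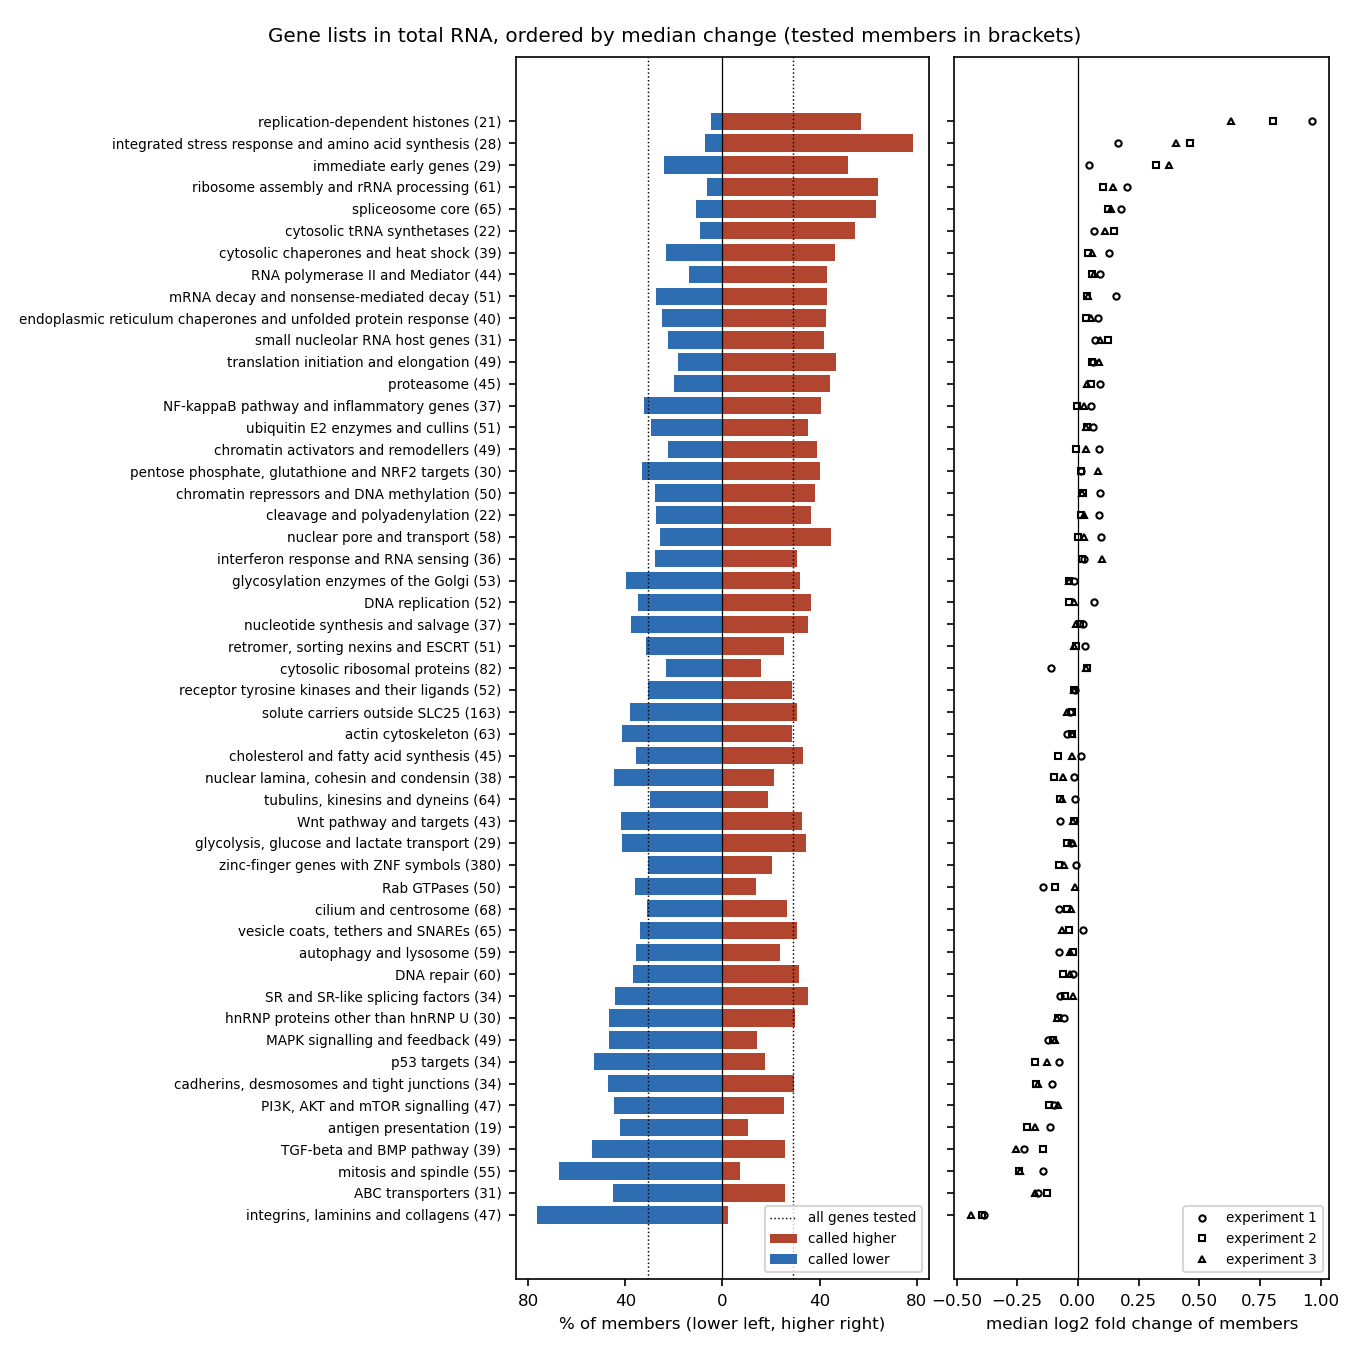
Left, the percentage of tested members called higher (red, to the right) and lower (blue, to the left) in each gene list, with dotted lines at the percentages over all tested genes (29.1% and 30.6%). Protein-coding genes as a whole had 28.9% higher and 35.2% lower. Cell type marker lists and lists with few tested members are not shown. Right, the median log2 change of each list's members in experiments 1, 2 and 3. Integrins, laminins and collagens stand at the bottom (76.6% lower), and replication-dependent histones (57.1% higher) and the integrated stress response (78.6% higher) at the top.

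The mitotic list also leaned lower. Of 55 genes of mitosis and the spindle, 37 fell and 4 rose, with a median of -0.20 (-0.14, -0.24 and -0.24 in the 3 experiments). MYBL2, a transcription factor of late cell-cycle genes, stood at 211, 222 and 217 CPM after control siRNA and at 95.8, 81.4 and 83.3 CPM after hnRNP U siRNA (-1.32 ± 0.05, adjusted p = 1.3e-11, edgeR). Apart from it the decreases were moderate: ESPL1, the separase that cuts cohesin, changed by -0.71, SPC25, a kinetochore subunit, by -0.57, and ASPM, a spindle pole protein, by -0.56. PLK4, the kinase of centriole duplication, was the member with the highest change (0.42). The 52 DNA replication genes were split, with 19 higher and 18 lower (median 0.01). CCNE2, cyclin E2, fell from 29.0, 29.3 and 29.1 CPM to 14.6, 14.3 and 14.1 CPM (-1.02), while RFC5, a clamp loader subunit, rose from 101, 107 and 95.4 CPM to 155, 148 and 148 CPM (0.58). DNA repair was split too, 22 lower and 19 higher of 60, the lower count going to 12 without experiment 2 and to 14 without experiment 3. Of 34 p53 targets, 18 fell and 6 rose (median -0.12), with TP53INP1, a stress-induced nuclear protein, at -1.14 and the kinase PLK3 at 0.70.

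Nuclear RNA-processing genes divided by complex. Of 65 genes of the spliceosome core, 41 rose and 7 fell (4 without experiment 3), with a median of 0.14, the member that fell most being SNRPD3, a core Sm protein (59.9, 61.3 and 59.0 CPM against 25, 26.8 and 27.8 CPM, -1.18 ± 0.05). The regulators did not share this lean. Among 30 hnRNP proteins other than hnRNP U, 9 rose and 14 fell (median -0.07), and among 34 SR and SR-like factors 12 rose and 15 fell (median -0.07). HNRNPH3, of the hnRNP H family, rose from 171, 178 and 167 CPM to 378, 377 and 362 CPM (1.11 ± 0.03, adjusted p = 2e-12, edgeR). HNRNPUL2, a close relative of HNRNPU, rose from 40.4, 40.2 and 35.5 CPM to 66.0, 67.0 and 64.9 CPM (0.77 ± 0.04). HNRNPDL, of the hnRNP D family, fell from 260, 250 and 240 CPM to 150, 130 and 133 CPM (-0.86 ± 0.04). SRSF2 and SRSF6, both SR proteins, changed by -0.43 and -0.38 and SRSF8 by 0.61. Of 51 genes of mRNA decay, 22 rose and 14 fell (median 0.08), with DCP2, the decapping enzyme, falling from 143, 131 and 132 CPM to 60.9, 52.8 and 51.9 CPM (-1.30 ± 0.04). Cleavage and polyadenylation had 8 higher and 6 lower of 22 (3 lower without experiment 3), and nuclear pore and transport 26 higher and 15 lower of 58, of which 7 were lower without experiment 2 and 7 without experiment 3.

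Of the chromatin lists, that of the replication-dependent histones had the highest median. Of 69 replication-dependent histone genes, whose mRNAs normally end in a stem-loop without a poly(A) tail, 21 could be tested in these poly(A)-selected libraries, and 12 rose and 1 fell (median 0.86, and 0.97, 0.81 and 0.63 in the 3 experiments). H2BC21 stood at 1.44, 1.84 and 2.02 CPM after control siRNA and at 5.02, 4.47 and 4.08 CPM after hnRNP U siRNA (1.34 ± 0.16). H3C10 went from 1.44, 0.744 and 1.19 CPM to 3.83, 3.12 and 2.74 CPM (1.52 ± 0.18). All of these are low levels, and whether the poly(A)-tailed part or the whole histone mRNA moved cannot be told apart. H2BC15 was the histone gene called lower (-0.58), and it was not called with any 1 experiment left out. At a minimum count of 50 the list had 7 called genes, all higher. CBX5, heterochromatin protein 1 alpha, rose by 0.79 and KAT2B, a histone acetyltransferase, changed by -1.58. Nuclear lamina, cohesin and condensin genes were lower in 17 and higher in 8 of 38 (4 higher without experiment 3), with SATB1, a matrix-attachment region binding protein, at -0.86 and SYNE2, a nuclear envelope protein, at -0.71. The 380 zinc-finger genes with ZNF symbols, most of them transcriptional repressors, showed 116 lower and 78 higher (median -0.04). ZNF652 fell from 88.5, 98.7 and 98.4 CPM to 33.4, 32.7 and 37.8 CPM (-1.46). RNA polymerase II and Mediator genes were higher in 19 and lower in 6 of 44 (median 0.08), POLR2A, the catalytic subunit, among the former (0.58).

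Most genes of ribosome assembly rose, while the ribosomal proteins showed no shared direction. Of 61 genes of ribosome assembly and rRNA processing, 39 rose and 4 fell (2 without experiment 2 or without experiment 3), with a median of 0.14 (0.20, 0.10 and 0.14 in the 3 experiments). RRP12, which acts in maturation and export of pre-ribosomes, rose from 60.6, 68.0 and 61.0 CPM to 103, 112 and 96.8 CPM (0.71 ± 0.04, adjusted p = 6.8e-10, edgeR), and UTP14A and RRP9, of the small subunit processome, rose by 0.52 each. Of 82 cytosolic ribosomal proteins, 13 rose and 19 fell (median -0.01). The median was -0.11 in experiment 1 and 0.04 and 0.03 in experiments 2 and 3, and the number that rose was 28 without experiment 1, 7 without experiment 2 and 6 without experiment 3, so no direction is given for this list. Of 49 translation initiation and elongation factors, 23 rose and 9 fell (median 0.06), the latter 4 without experiment 3. EIF4A2, an RNA helicase, rose from 313, 272 and 280 CPM to 482, 473 and 476 CPM (0.73), while EIF4G2, a factor of cap-independent initiation, fell from 1822, 1958 and 1849 CPM to 1443, 1330 and 1311 CPM (-0.46). Among 22 cytosolic tRNA synthetases and their cofactors 12 rose and 2 fell (1 without experiment 3). DANCR, a host gene of small nucleolar RNA, rose from 67.2, 62.8 and 67.5 CPM to 147, 142 and 141 CPM (1.12), and of 31 such host genes 13 rose and 7 fell.

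Of these lists, the one of amino acid stress genes had the largest share that rose. The integrated stress response lowers general translation and raises genes of amino acid supply and stress signalling. Of 28 of its genes, 22 rose and 2 fell (median 0.36), the latter 1 without the replicate block or without experiment 1. GDF15, a secreted stress cytokine, stood at 252, 173 and 153 CPM after control siRNA and at 460, 453 and 431 CPM after hnRNP U siRNA (1.25 ± 0.08, adjusted p = 4.2e-09, edgeR). DDIT4, an inhibitor of mTOR signalling, went from 149, 95.4 and 69.2 CPM to 224, 223 and 184 CPM (1.06 ± 0.10). DDIT3, the transcription factor CHOP, went from 15.9, 7.99 and 7.36 CPM to 21.2, 20.8 and 17.8 CPM (0.98 ± 0.13). In these 3 genes the groups did not overlap, but the control library of experiment 1 was above the other 2 control libraries. The median of the list was 0.17 in experiment 1 and 0.46 and 0.40 in experiments 2 and 3. The 29 immediate early genes also had their lowest median in experiment 1 (0.04, 0.32 and 0.37), with 15 higher and 7 lower, MYC at 0.63 and JUN at 0.72. Endoplasmic reticulum chaperones and the unfolded protein response showed 17 higher and 10 lower of 40, with 6 lower without the replicate block and without experiment 3. DNAJB9, a chaperone of that response, fell from 22.2, 20.3 and 18.3 CPM to 11.8, 10.6 and 10.1 CPM (-0.90). Cytosolic chaperones showed 18 higher and 9 lower of 39, the former 11 without experiment 3, and the proteasome 20 higher and 9 lower of 45.

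In the immune and metabolic lists the largest changes were in single genes. OAS3, which senses double-stranded RNA, fell from 69.9, 79.4 and 72.2 CPM to 23.6, 24.0 and 26.4 CPM (-1.58 ± 0.05, adjusted p = 4.7e-12, edgeR), in an interferon list with 11 higher and 10 lower of 36. Of 19 antigen presentation genes, 8 fell and 2 rose (median -0.16). CXCL8, the chemokine interleukin-8, rose from 1.15, 0.614 and 0.728 CPM to 3.34, 2.51 and 2.54 CPM (1.76 ± 0.18), in an NF-kappaB list with 15 higher and 12 lower of 37 (9 higher without experiment 3). In metabolism, 45 genes of cholesterol and fatty acid synthesis were even (15 higher, 16 lower), with SREBF2, the regulator of cholesterol synthesis, falling from 289, 304 and 307 CPM to 163, 168 and 178 CPM (-0.82). Glycolysis (10 higher and 12 lower of 29), nucleotide metabolism (13 and 14 of 37) and the pentose phosphate, glutathione and NRF2 list (12 and 10 of 30) were even as well. GSR, glutathione reductase, rose from 170, 162 and 161 CPM to 311, 306 and 308 CPM (0.91), and UPP1, uridine phosphorylase, from 31.2, 24.1 and 20.8 CPM to 64.3, 63.6 and 51.6 CPM (1.25).

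Among long non-coding RNAs (lncRNAs) more genes rose than fell, unlike among protein-coding genes. Of 18843 lncRNA genes in the table, 8226 had a count and 2318 were tested. Of these, 841 rose (36.3%) and 300 fell (12.9%), with a median log2 change of 0.30 (0.26, 0.32 and 0.29 in the 3 experiments). Protein-coding genes had 3684 higher (28.9%) and 4491 lower (35.2%) of 12758. A lncRNA can pass the count filter through 1 group alone, and 410 tested lncRNAs had at least 10 counts in all 3 hnRNP U siRNA libraries but not in all 3 control libraries, against 107 the other way. The lean was therefore also read among lncRNAs of higher mean level. At a mean log2 CPM of 2 to 4, 159 of 297 rose and 56 fell (median 0.28), and at 4 or above 45 of 82 rose and 25 fell (median 0.14). LncRNAs took 0.808 ± 0.0349% (SD, n = 3) of the counts after control siRNA and 0.936 ± 0.01% after hnRNP U siRNA. Pseudogenes, whose reads are shared with their parent genes, showed no such lean (66 higher and 56 lower of 707, median 0.01).

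**Figure D4:**
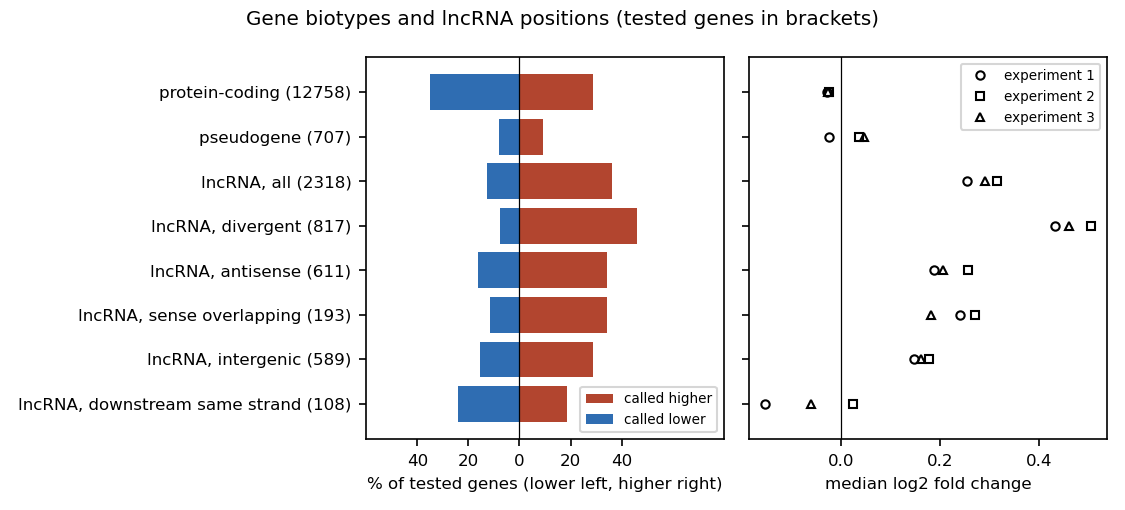
Left, the percentage of tested genes called higher (red, to the right) and lower (blue, to the left) by biotype and, for lncRNAs, by position relative to protein-coding genes. Right, the median log2 change in each of the 3 experiments. Divergent lncRNAs have the highest share of risers (46.0%), and lncRNAs just downstream of a protein-coding gene on the same strand the lowest of the lncRNA positions (18.5%).

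The lncRNAs differed by where they start. A lncRNA is called divergent here when it starts within 1000 bases of a protein-coding start on the other strand, a position in which both transcripts leave 1 promoter region in opposite directions. Of 817 divergent lncRNAs, 376 rose (46.0%) and 62 fell (7.59%), with a median of 0.49 (0.43, 0.50 and 0.46 in the 3 experiments). Together they summed to 2109, 1974 and 2069 CPM after control siRNA and to 2739, 2691 and 2719 CPM after hnRNP U siRNA. These sums did not overlap, at 2051 ± 69.5 against 2716 ± 24.5 CPM (SD, n = 3 each, two-sided exact permutation p = 0.1, the smallest that 3 against 3 can give). The test was chosen after the data were seen. Each of the other position classes gave the same p, so it does not set this class apart. The sums hold all tested lncRNAs of the class, also any that passed the count filter through 1 group alone. Antisense lncRNAs had 209 higher and 99 lower of 611 (median 0.24), those overlapping a gene on its own strand 66 higher and 22 lower of 193 (median 0.24), and intergenic ones 170 higher and 91 lower of 589 (median 0.16). The 108 lncRNAs within 5 kb downstream of a gene on the same strand showed 20 higher and 26 lower (median -0.07, and -0.15, 0.02 and -0.06 by experiment). Their sum was 232, 225 and 236 CPM after control siRNA and 188, 189 and 192 CPM after hnRNP U siRNA.

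The divergent class was read again, in an alternative chosen after the data were seen, among lncRNAs whose mean log2 CPM was 1 or more. There, 139 of 217 rose and 21 fell (median 0.48). Among the 95 of those whose exons overlap no exon of another tested gene, 67 rose and 8 fell (median 0.61). The protein-coding partners did not share the lean. Of 771 tested partners of divergent lncRNAs, 226 rose and 277 fell (median -0.02), and over 773 pairs of lncRNA and partner the changes had a Spearman correlation of 0.105.

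Of the 5 lncRNAs with the largest increases, 2 were divergent. LINC00482 (chr17:81303771-81309278), which is intergenic, stood at 0.894, 0.873 and 0.997 CPM after control siRNA and at 6.35, 5.85 and 7.43 CPM after hnRNP U siRNA (2.83 ± 0.14, adjusted p = 3.2e-10, edgeR). ENSG00000276791 (chr16:2777319-2780568), divergent to ELOB, which encodes elongin B, went from 0.670, 0.744 and 0.836 CPM to 4.73, 5.16 and 5.22 CPM (2.74), while ELOB itself changed by 0.21. ENSG00000289586 (chr4:76908814-76949639), divergent to the septin gene SEPTIN11, went from 3.67, 2.91 and 3.18 CPM to 19.5, 19.3 and 18.6 CPM (2.55), while SEPTIN11 changed by -0.25. ENSG00000248112, an intergenic lncRNA on chromosome 5, went from 2.91, 2.23 and 2.53 CPM to 18, 16.4 and 15 CPM (2.68). None of these 4 had overlapping groups, which their choice as the largest called increases favours. The largest decreases were in LINC02331 (22.1, 17.6 and 19.1 CPM against 6.59, 5.48 and 5.39 CPM, -1.75), ENSG00000234147 (-1.70) and LINC02977 (-1.59), the last of which lies downstream of SUSD1 on its strand, itself at -0.80.

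The number of exons went with the change in both biotypes. Of 712 lncRNAs with 1 exon, 306 rose and 87 fell (median 0.47), while of 1058 with 3 or more exons 325 rose and 156 fell (median 0.17). Of 274 protein-coding genes with 1 exon, 118 rose and 55 fell (median 0.18), whereas the median was 0.03 with 2 exons and -0.03 with 3 or more. At a mean log2 CPM of 1 or more, an alternative chosen after the data were seen, 87 of 155 lncRNAs with 1 exon rose and 30 fell (median 0.43), and 164 of 357 with 3 or more exons rose and 74 fell (median 0.17). There the medians of protein-coding genes were 0.18 with 1 exon, 0.04 with 2 and -0.02 with 3 or more.

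Among protein-coding genes, the share that fell went up with the span of the gene, and the share that rose went down. Span is the distance from a gene's start to its end in the genome, introns included. Of 1005 genes under 5 kb, 36.3% rose and 20.7% fell (median 0.08). The shares crossed between 20 and 50 kb, where 29.9% rose and 35.1% fell. Of 792 genes of 200 to 500 kb, 16.5% rose and 52.9% fell (median -0.20), and of 137 genes of 500 kb or more 12 rose (8.76%) and 79 fell (57.7%), with a median of -0.33. In the last class 21 genes fell at least 2-fold and 0 rose as much, and its median was -0.39, -0.31 and -0.30 in the 3 experiments.

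**Figure D5:**
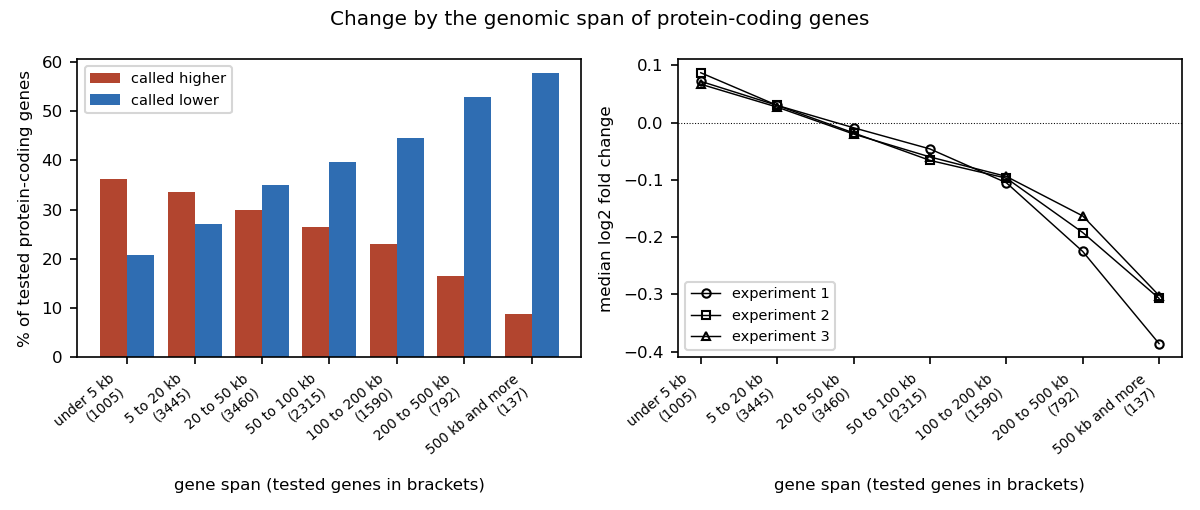
Left, the percentage of tested protein-coding genes called higher (red) and lower (blue) in classes of genomic span. Right, the median log2 change of each class in experiments 1, 2 and 3. The share that fell goes from 20.7% under 5 kb to 57.7% at 500 kb and more, and the medians of the 3 experiments go down together.

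Over 12744 protein-coding genes, leaving out HNRNPU and mitochondrial-encoded genes, the Spearman correlation between change and span was -0.198, a description across genes, which are not independent replicates. The median log2 change of the top quintile of genes by span minus that of the bottom quintile was -0.22, -0.20 and -0.17 in the 3 experiments (-0.198 ± 0.023, SD, n = 3). The same measure taken in each library against the mean of all 6 was 0.099, 0.107 and 0.094 after control siRNA and -0.116, -0.101 and -0.087 after hnRNP U siRNA, with no overlap (two-sided exact permutation p = 0.1, the smallest possible). This test was chosen after the data were seen. Every other feature named below except GC content gave the same p, so it does not set span apart. Total intron length went with the change as span did (-0.208), followed by mature transcript length (-0.187), 3′ UTR length (-0.157), coding length (-0.122), 5′ UTR length (-0.119) and exon number (-0.113). The GC content of the transcript hardly did (0.058). The number of genes within 500 kb went the other way (0.138), and so did the mean level (0.150).

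These features are linked with each other, so span was also read within tertiles of mature length. There its correlation with the change was -0.088, -0.117 and -0.178 from the shortest to the longest tertile. Mature length within tertiles of span gave -0.081, -0.115 and -0.125. Within tertiles of mean level, span gave -0.247, -0.207 and -0.154. Each of the 2 lengths therefore kept part of its relation at a like value of the other, and span kept it at each level, whereas gene density within tertiles of span was 0.017, 0.053 and 0.128.

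RG4 motifs were sought because hnRNP U binds RG4s. A motif was 4 runs of 3 or more G, separated by loops of 1 to 7 nt, on the transcript's strand of the canonical transcript. It was present in 3407 of the protein-coding genes, of which 26.1% rose and 38.8% fell (median -0.06), against 29.9% and 33.8% of the 9337 without it (median -0.02). The difference in medians was -0.043, and -0.025, -0.014 and -0.031 within tertiles of mature length. With the motif in the 5′ UTR, 23.2% of 1079 genes rose and 42.4% fell (median -0.10). The top quintile of genes by 5′ UTR length, with or without a motif, was close to this (24.2% higher, 40.5% lower, median -0.09). The motif was not read at a like 5′ UTR length, so the 2 cannot be told apart here. The medians were -0.03 for 877 genes with it in the coding sequence and -0.06 for 2028 with it in the 3′ UTR. Motifs occurred in genes that fell and in genes that rose. They are shown for 3 of the largest decreases (OXSR1 in its 5′ UTR, at chr3:38165548-38165568 on the plus strand, CRIM1 in its 3′ UTR, at chr2:36549000-36549018 on the plus strand, and NEURL1B in its 3′ UTR, at chr5:172687260-172687276 on the plus strand) and for SLC7A5 (3′ UTR, chr16:87830077-87830094, minus strand) and SDC4 (3′ UTR, chr20:45325615-45325641, minus strand), which rose. Positions are on GRCh38, capitals mark runs of 3 or more G, and each is written 5′ to 3′ on the transcript.
OXSR1: GGGGctGGGGtggaGGGcGGG
CRIM1: GGGGaaatGGGtGGGaGGG
NEURL1B: GGGGaGGGGaGGGaGGG
SLC7A5: GGGctGGGttGGGtaGGG
SDC4: GGGtaGGGGGGGGGGaatGGGGGaGGG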

How the data were processed

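RNA-seq of total RNA from 3 experiments with each siRNA was analysed (6 libraries). Directional libraries were made after poly(A) selection; the authors aligned reads to hg38 with STAR and deposited raw counts per gene. The submitters' processing notes name CASAVA 1.8 and STAR. Neither the strand setting of the counting nor STAR's version is given in the sources used here. The counts were used as deposited, with no molecular identifiers, so library totals limit counting precision only.

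Genes passed edgeR's filterByExpr (minimum count 10, over the 4 conditions of the 12 libraries). The quasi-likelihood F-test of edgeR 4.0.16 (R 4.3.3) was run on the 6 total RNA libraries with TMM factors, siRNA as the term and the experiment as a block, with Benjamini-Hochberg adjustment and a threshold of 0.05. The experiment numbers come from the sample titles. Deviations of same-numbered libraries from their group means correlated at 0.133, 0.167 and 0.347, and of other pairs from -0.247 to 0.0453 (9855 genes), so the numbers were taken to pair the samples. P-values rest on the spread of the siRNA effect between experiments, as differences in level between experiments are taken up by the block. The test draws the variance of each gene partly from the other genes. In simulated counts of this design, the test recovered 100% of genes changed by 1 on the log2 scale, 90% of those changed by 0.5 and called 0.089% of unchanged ones. The simulation changed few genes, all of higher count and as many up as down, with the same siRNA effect in every experiment. In the data most genes were called and many had low counts, so these rates do not carry over to them.

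Coordinates, biotypes and transcripts came from GENCODE release 44, in which 62639 of the 62703 identifiers were found. Features were taken from the canonical transcript, and neighbouring genes with bedtools 2.31.1. Named genes were HNRNPU, the 12 largest decreases and 12 largest increases among protein-coding genes (called, mean log2 CPM of at least 3, same sign in every experiment), the 5 largest lncRNAs each way, the 5 largest shifts in CPM each way and, from each list, at most 4 members that were called. COL12A1, FN1, LAMA4, COL7A1, ITGB1, PLK4, H2BC15, ELOB, SEPTIN11, SUSD1, TUBB3, SYP, DCN, LUM, PDGFRA, CDH1, KRT8, KRT20, CDX1, VIL1, CDH17, LGALS4, CEACAM5 and CEACAM6 fall outside this rule and were chosen with their values in view. Of the genes the rule picks, some are not reported here. The genes, the 58 lists and the tests were chosen with earlier results of these data known. The alternatives were DESeq2 1.42.0, other size factors, other filters, no block, all 12 libraries, leaving out each experiment, and other definitions of the gene features.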

Additional observations from a re-analysis of the deposited data

How the results depend on the processing

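Results were recomputed with other size factors (DESeq2's or upper-quartile), with no filter, a minimum count of 50 or a filter on the 6 libraries alone, with no replicate block, with all 12 libraries, without each experiment in turn, and with DESeq2 as the test. No named gene changed sign in any of them, and of their 2799 values 37 lost the call. Whether more members rose or fell turned in at least 1 alternative in 11 of 54 lists, by the widest margin in ribosomal proteins (28 higher and 15 lower without experiment 1, in place of 13 and 19). The others were DNA repair, DNA replication, chromatin repressors, histone variants, cilium, glycolysis, nucleotide metabolism, interferon, receptor tyrosine kinases and vesicle coats. The number of called genes was 9123 without the replicate block (4454 higher, 4669 lower), 9323 with all 12 libraries, 7917 to 9310 with 1 experiment left out and 7070 in DESeq2. A minimum count of 50, which tests fewer genes, left 261 genes higher and 393 lower by at least 2-fold, 450 lncRNAs higher and 162 lower, 28 pseudogenes higher and 27 lower, and 7 histone genes called. DESeq2 called 508 lncRNAs higher and 160 lower, 30 pseudogenes higher and 26 lower, and 118 zinc-finger, 6 antigen presentation, 20 Wnt and 18 MAPK genes. With 1 experiment left out, the called genes numbered 9 to 16 for cleavage and polyadenylation, 16 to 25 for lamina, cohesin and condensin, 19 to 43 for ribosomal proteins, 20 to 35 for translation factors, 17 to 25 for cytosolic chaperones, 19 to 29 for MAPK and 17 to 24 for NF-kappaB, each lowest without experiment 3. The gap in median log2 change between the top and bottom quintile of a feature shrank with tertiles in place of quintiles, to -0.144 for span, -0.150 for introns, -0.080 for exon number, -0.109 for the 5′ UTR and -0.127 for the 3′ UTR. In genes of mean log2 CPM 3 or more it was -0.156, -0.157, -0.086, -0.097 and -0.130 in the same order, 0.082 for gene density and 0.102 for mean level. With the longest transcript it was -0.179 for introns and -0.102 for the 5′ UTR. In the middle tertile by level it was -0.141 for exon number, 0.089 for gene density and 0.062 for mean level. For the 5′ UTR it ran from -0.128 to -0.115 with 1 experiment left out. The cause of these shifts was not tested. Depth limits the lowest genes, of which many were tested only through the group where they were higher.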

Other observations

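Most lists of trafficking and the cytoskeleton had more genes lower than higher, as protein-coding genes had as a whole (28.9% higher and 35.2% lower). Of 50 Rab GTPases, which direct vesicle traffic, 18 fell and 7 rose (median -0.05), with RAB30 of the Golgi going from 10.0, 10.1 and 10.2 CPM to 4.24, 4.58 and 4.47 CPM (-1.19 ± 0.09). Of 53 Golgi glycosylation enzymes, 21 fell and 17 rose (median 0.02). Among them C1GALT1, which extends O-linked glycans, fell from 50.8, 48.4 and 54.0 CPM to 22.7, 19.6 and 23.0 CPM (-1.23 ± 0.05). Of 63 actin cytoskeleton genes, 26 fell and 18 rose (median -0.02), with ARPC5, a subunit of the actin-branching complex, going from 112, 104 and 109 CPM to 52.5, 51.1 and 51.0 CPM (-1.07 ± 0.04). Tubulins, kinesins and dyneins showed 19 lower and 12 higher of 64, and KIF5C, a kinesin heavy chain, rose from 13.2, 11.3 and 14.4 CPM to 26.3, 26.6 and 29.5 CPM (1.08 ± 0.06). Vesicle coats, tethers and SNAREs had 22 lower and 20 higher of 65 (13 higher without experiment 3), retromer, sorting nexins and ESCRT 16 lower and 13 higher of 51, cilium and centrosome 21 lower and 18 higher of 68, and autophagy and lysosome 21 lower and 14 higher of 59. Ubiquitin E2 enzymes and cullins had 18 higher and 15 lower of 51, with SMURF2, a ligase of TGF-beta signalling, falling from 353, 313 and 326 CPM to 190, 193 and 206 CPM (-0.75).

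Among the remaining nuclear lists, chromatin activators had more genes higher than lower. Chromatin repressors and DNA methylation had 19 higher and 14 lower of 50 (11 and 13 without experiment 3), chromatin activators and remodellers 19 higher (12 without experiment 3) and 11 lower of 49, and histone variants 5 higher and 4 lower of 12. Keratins had 4 higher and 4 lower of 14 (2 lower without experiment 3), and clustered protocadherins 1 higher and 2 lower of 8. The neuronal and endothelial markers summed to 18.6 to 20.9 CPM after control siRNA and to 10.3 to 12.3 CPM after hnRNP U siRNA, with the fall in MAP2, which binds microtubules (15.2, 12.5 and 15.2 CPM against 4.93, 6.01 and 6.45 CPM). TUBB3, a tubulin, stood at 3.04 ± 0.531 and 3.67 ± 0.372 CPM and SYP, synaptophysin, at 1.45 ± 0.497 and 1.56 ± 0.0916 CPM (SD, n = 3). Immune markers summed to at most 0.458 CPM in any library.

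By chromosome, the median change of protein-coding genes ran from -0.11 on chromosome 18 to 0.03 on chromosome 12, and was -0.00 on chromosome 19. The median gene span was 63.2 kb on chromosome 18, 33.4 kb on chromosome 12 and 16.9 kb on chromosome 19. A link between span and change across chromosomes was not tested. Neighbouring genes hardly moved together. Over 12519 pairs of adjacent tested genes the Spearman correlation of their changes was 0.071, with the same sign in 52.2%, and over genes 50 places apart it was 0.000 with 50.1%.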
